A study of Mus musculus with 9 samples.

Results

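The snoRNA host genes are noncoding genes whose introns carry small nucleolar RNAs. A list of 10 of them (Gas5, Snhg1, Snhg3, Snhg4, Snhg5, Snhg6, Snhg8, Snhg12, Snhg15 and Snhg20) was looked up by gene identifier among the 53380 rows of each library. Of the 10, 9 had a row, and all 9 passed the filter on low counts, as did 14098 genes in all. Snhg4 was not analysed here. The cells were leukaemia cells of the mouse (T cell acute lymphoblastic leukaemia, T-ALL) from the EμSRα-tTA/tet-O-MYC mouse model, in which a tetracycline transactivator under the EμSRα promoter drives a human MYC transgene until doxycycline is added. Every group therefore carried both transgenes and was harvested at 48 hours. MYC on cells were mock treated, MYC intermediate cells received 20 pg/mL doxycycline and MYC off cells received 500 pg/mL, with 3 libraries each. The comparisons ask how far each host gene follows the amount of MYC.

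A host gene is transcribed and spliced like a messenger RNA. The intron is then debranched and trimmed, and what remains is a snoRNA bound by a set of core proteins. Box C/D snoRNAs guide methylation of ribosomal RNA with fibrillarin as the enzyme, and H/ACA snoRNAs guide pseudouridylation with dyskerin as the enzyme. The spliced host RNA itself often begins with a pyrimidine tract (a terminal oligopyrimidine start, as in ribosomal protein genes), holds no long reading frame, and is in many cases degraded by nonsense-mediated decay. MYC is known as an activator of ribosome production. Only the polyadenylated host RNA was measured here, not the snoRNA made from it.

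The 9 host genes held 29 annotated snoRNA loci, of which 8 were named box C/D, 7 were named H/ACA, 1 was a small Cajal body RNA and 13 carried no snoRNA name. Of those 13, 11 held both boxes. The box search took TGATGA in the first 25 bases and CTGA in the last 20 bases on the sense strand, a pair found in 20.6% of 1507 annotated mouse snoRNAs. For H/ACA snoRNAs the search took ACA in the last 10 bases, which 47.4% of the same 1507 held. The following sequences (GENCODE M21, mm10) show what the hosts carry, with these boxes in capitals. Snord80 and Snord47 lie in Gas5 at chr1:161037601-161037681 and chr1:161038082-161038158 (plus strand). Gm25855 lies in Snhg1 at chr19:8723993-8724064 (plus strand). Snord87 lies in Snhg6 at chr1:9942463-9942549 (minus strand), Snora9 in Snhg15 at chr11:6528033-6528165 (minus strand) and Snora24 in Snhg8 at chr3:123507937-123508066 (minus strand). The pair Snord50a and Snord50b lie in Snhg5 at chr9:88521529-88521600 and chr9:88521797-88521868 (minus strand), and differ by the single substitution C50A (Snord50a base first, positions counted from the 5′ end).
Snord80: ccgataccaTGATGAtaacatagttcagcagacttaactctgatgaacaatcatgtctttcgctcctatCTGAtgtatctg
Snord47: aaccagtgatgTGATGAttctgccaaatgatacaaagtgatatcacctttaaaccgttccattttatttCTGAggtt
Gm25855: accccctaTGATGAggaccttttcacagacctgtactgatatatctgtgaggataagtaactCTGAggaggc
Snord87: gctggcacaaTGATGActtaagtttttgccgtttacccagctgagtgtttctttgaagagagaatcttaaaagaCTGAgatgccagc
Snord50a: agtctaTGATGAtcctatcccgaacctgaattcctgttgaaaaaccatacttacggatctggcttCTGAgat
Snord50b: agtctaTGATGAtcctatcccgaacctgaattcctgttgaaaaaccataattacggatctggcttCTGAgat
Snora9: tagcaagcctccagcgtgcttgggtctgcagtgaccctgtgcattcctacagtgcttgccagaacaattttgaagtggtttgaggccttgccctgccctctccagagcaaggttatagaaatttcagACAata
Snora24: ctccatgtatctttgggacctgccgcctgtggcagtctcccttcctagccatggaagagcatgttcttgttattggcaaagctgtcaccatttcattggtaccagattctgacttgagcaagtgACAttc

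The snoRNA rows held few counts in these libraries, which were primed on poly(A). Of the 29 loci, 26 had 0 counts over all 9 libraries, and Snora73b, Snora73a and Snord87 had 105, 7 and 3. All 1558 snoRNA rows together took 0.00219% to 0.00367% of counts per library. A row at 0 in a library allows up to 0.0756 to 0.16 CPM (counts scaled to the same total in each library), by the limit of 3 counts, which covers counting error only. Several annotated host transcripts retain the introns, and the 26 loci at 0 lie within annotated host exons. Snora73a shares 159 of its 205 bases with them, and Snora73b and Snord87 lie clear of them. Reads in bases shared by a snoRNA and its host may have been left uncounted. The zeros and their limit therefore do not bound the level of the snoRNAs. The values below are levels of host RNA, spliced or not, and may lack such reads.

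Starts and promoters were taken from RefSeq (GRCm38.p6), which matched 8 members and gave windows of 250 bases before to 50 bases after the start. Snhg6 and Snhg4 had none. A start at C followed by at least 4 pyrimidines occurred in 2.49% of 27025 promoters, the first window listed for each gene. Among the members, searched at all their starts, it occurred at the second of the Gas5 starts (window chr1:161034916-161035215, plus strand). It also occurred at Snhg8 (chr3:123508287-123508586, minus strand). The first Gas5 start had no such run, so by the rule of the background Gas5 would not count. The first 30 bases at these starts are shown with the pyrimidine run in capitals.
Gas5: CTTTCggagctgtgcggcattctgagcagg
Snhg8: CTCTTTggctgcgatccgcctacgagtatg

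CACGTG, the E-box that MYC with MAX is known to bind, was searched on both strands (it is its own reverse complement) and stood in 7.24% of the 27025 promoters. Among the members it was found in the Snhg15 window alone, 11 bases after the annotated start. That window, chr11:6528711-6529010 (minus strand), is shown with the motif in capitals. A second motif searched, CACGCG or its reverse complement CGCGTG, stood in 9.36% of the promoters. Among the members it had 2 matches each in the Snhg5, Snhg15 and Snhg20 windows, not marked here. A match is a description of the letters, and MYC binding was not measured in these files.
Snhg15: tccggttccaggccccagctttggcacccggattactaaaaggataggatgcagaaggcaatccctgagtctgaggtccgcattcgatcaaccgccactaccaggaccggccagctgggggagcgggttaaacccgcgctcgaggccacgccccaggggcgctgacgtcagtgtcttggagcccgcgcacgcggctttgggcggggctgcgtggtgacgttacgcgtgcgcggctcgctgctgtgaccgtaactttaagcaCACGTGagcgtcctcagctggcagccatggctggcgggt

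The libraries held 18705516 to 39678799 counts, and within groups the log CPM of any pair of libraries gave a Pearson's r of 0.991 to 0.995 across genes. The MYC transgene followed the labels, at 1260 ± 75.4 CPM with MYC on, 408 ± 23.0 CPM at the intermediate dose and 3.79 ± 0.454 CPM with MYC off (SD, n = 3 each). All 10 T cell markers were detected, and their summed level was 6421 to 6764 CPM with MYC on, 11110 to 12390 CPM at the intermediate dose and 14790 to 15930 CPM with MYC off. Of the 7 myeloid markers, Lyz2, Adgre1 and Cd14 were at 0 in every library, and the list summed to 26.9 to 31.3 CPM with MYC on, 32.5 to 36.2 CPM for MYC intermediate and 41.2 to 44.1 CPM with MYC off, without overlap. Of that list, Itgam was at 3.88 ± 0.683, 13.3 ± 1.06 and 22.1 ± 1.74 CPM in the same order, called between MYC on and MYC off (log2 −2.46 ± 0.13, edgeR, adjusted p = 1.76e-10). Csf1r went the other way, at 24.8 ± 1.59, 20.7 ± 1.04 and 19.55 ± 1.05 CPM (log2 0.38 ± 0.08, edgeR, adjusted p = 0.000818). Of the 3 myeloid markers tested, 1 was called higher in MYC on, 1 lower and 1 was not called. B cell, erythroid and stromal lists each summed to at most 0.267 CPM in any library, with Pax5, Hba-a2, Col3a1 and Kdr at 0 throughout. The part of these marker levels in the results on host genes was not tested. In bulk RNA, fewer cells with a transcript and less of it per cell cannot be told apart.

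All 9 measured host genes had a higher mean in MYC on than in MYC off, and 7 of the 9 were called higher (edgeR, adjusted p under 0.01). Of all genes tested, 27.4% were called higher in this comparison. None of the members was called lower, where the background was 27.5%. No member was lower at an unadjusted p under 0.05 either, in edgeR or in DESeq2 (0 of 9 each). The median log2 fold change of the 9 members was 1.75, against −0.03 over all genes tested. Every MYC on library lay above every MYC off library for 7 of 9 members, which was the case for 32.8% of all genes. DESeq2 called 8 of 9 higher, Snhg20 being the added gene.

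**Figure D1:**
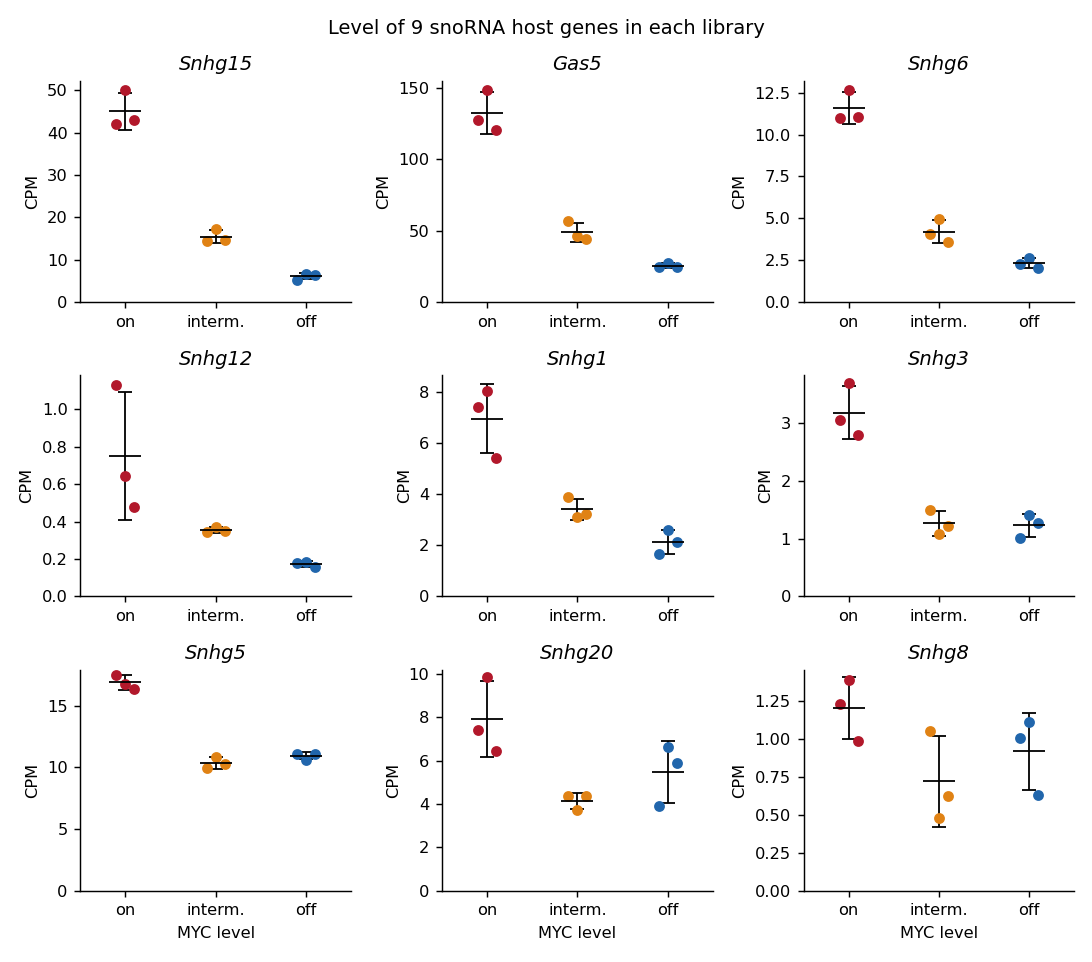
Level of each of 9 snoRNA host genes (CPM, linear axes from 0) in the 3 libraries of MYC on, MYC intermediate and MYC off; points are libraries, black bars are the mean and SD. The 3 groups stand apart for Snhg15, Gas5, Snhg6, Snhg12 and Snhg1, while Snhg3, Snhg5 and Snhg20 drop from MYC on to MYC intermediate and overlap between MYC intermediate and MYC off.

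Snhg15, the host of Snora9, had the largest fold change among the members. Its level was 42.0, 49.9 and 43.0 CPM with MYC on replicates 1 to 3, then 14.4, 17.2 and 14.6 CPM at the intermediate dose and 5.27, 6.61 and 6.27 CPM with MYC off. The 3 groups stood apart with no overlap. The log2 fold change of MYC on over MYC off was 2.93 ± 0.11 (SE), a 7.64-fold difference (edgeR, adjusted p = 2.88e-12). It was divided nearly evenly between the steps, 1.54 ± 0.10 from MYC intermediate to MYC on (adjusted p = 1.12e-08) and 1.40 ± 0.11 from MYC off to MYC intermediate (adjusted p = 1.07e-07).

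Gas5, named for its accumulation in growth-arrested cells and the host of 9 snoRNA loci here, had the most counts of the members. It stood at 127.6, 148.6 and 120.8 CPM with MYC on, 56.5, 46.2 and 44.0 CPM at the intermediate dose and 24.5, 27.2 and 24.5 CPM with MYC off. Again the groups did not overlap. MYC on exceeded MYC off by 2.42 ± 0.10 on the log2 scale, 5.34-fold (edgeR, adjusted p = 1.22e-11). The upper step was 1.42 ± 0.10 (adjusted p = 1.83e-08) and the lower step 1.00 ± 0.10 (adjusted p = 1.62e-06). Higher Gas5 in the cells with more MYC was thus the direction in every pair of libraries across groups.

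Snhg6, the host of Snord87, was called in all 3 comparisons. Its values were 11.0, 12.7 and 11.1 CPM with MYC on, 4.07, 4.96 and 3.59 CPM at the intermediate dose and 2.29, 2.64 and 2.06 CPM with MYC off, without overlap between groups. The log2 fold change of MYC on over MYC off was 2.35 ± 0.15 (edgeR, adjusted p = 1.77e-09). Both steps were called, at 1.45 ± 0.14 (adjusted p = 8.21e-07) and 0.90 ± 0.16 (adjusted p = 0.000389). Snhg6 shares 127 exon bases with Mcmdc2 on the other strand, and the libraries do not mark the strand, so reads there cannot be told apart. Mcmdc2 was itself low, at 1.01 CPM with MYC on and 0.320 CPM with MYC off.

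Snhg1, the U22 host gene, holds 8 snoRNA loci including Snord22, which acts in processing of 18S ribosomal RNA. It was at 7.38, 8.02 and 5.42 CPM with MYC on, 3.88, 3.11 and 3.20 CPM at the intermediate dose and 1.64, 2.60 and 2.12 CPM with MYC off. The groups did not overlap. MYC on exceeded MYC off by 1.75 ± 0.19 (edgeR, adjusted p = 1.05e-06) and MYC intermediate by 1.00 ± 0.19 (adjusted p = 0.000398). The lower step of 0.75 ± 0.20 passed narrowly (adjusted p = 0.00828) and did not pass under 9 of 17 alternative settings, with values of 0.61 to 0.81 there. These include leaving out any of 6 single libraries (MYC on replicates 1 and 2, MYC intermediate replicates 1 and 2, MYC off replicates 1 and 3).

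Snhg12, a host of 3 H/ACA snoRNA loci and Snord99, had the fewest counts of the members. They were 23, 12 and 14 counts with MYC on, 11, 10 and 10 at the intermediate dose and 7, 5 and 5 in MYC off. The corresponding levels were 0.477 to 1.13, 0.341 to 0.370 and 0.158 to 0.186 CPM, with no overlap. The log2 fold change of MYC on over MYC off was 2.08 ± 0.43 (edgeR, adjusted p = 0.000499). Neither step passed, at 1.03 ± 0.39 (adjusted p = 0.039) and 1.05 ± 0.46 (adjusted p = 0.0886). Without MYC on replicate 1, its highest library, the upper step was 0.61 (adjusted p = 0.272).

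Snhg3, the host of the U17 snoRNAs Snora73a and Snora73b, was called against MYC on alone. It was at 3.05, 3.69 and 2.79 CPM with MYC on, 1.49, 1.07 and 1.22 CPM at the intermediate dose and 1.01, 1.41 and 1.27 CPM with MYC off. MYC on stood above both other groups, which overlapped each other. The change from MYC intermediate to MYC on was 1.30 ± 0.21 (edgeR, adjusted p = 0.000137) and that from MYC off to MYC on 1.41 ± 0.21 (adjusted p = 2.91e-05). The lower step was 0.11 ± 0.23, with a 95% interval of −0.34 to 0.55 (adjusted p = 0.747). Snhg3 shares 135 exon bases with Rcc1 on the same strand and 705 with the noncoding Gm17300 on the opposite strand, so its counts may include or lack their reads.

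Snhg5, the U50 host gene, also had its called changes against MYC on alone. Its level was 17.5, 16.8 and 16.4 CPM with MYC on, 9.93, 10.9 and 10.2 CPM at the intermediate dose and 11.1, 10.6 and 11.1 CPM with MYC off. MYC on lay clear of both doxycycline groups, which overlapped. MYC on exceeded MYC off by 0.66 ± 0.09 (edgeR, adjusted p = 1.22e-05) and MYC intermediate by 0.70 ± 0.09 (adjusted p = 1.69e-05). MYC intermediate and MYC off differed by −0.04 ± 0.09, with a 95% interval of −0.22 to 0.14 (adjusted p = 0.768).

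Snhg20, which holds a small Cajal body RNA locus, was lowest at the intermediate dose. It stood at 7.43, 9.89 and 6.47 CPM with MYC on, 4.38, 3.74 and 4.35 CPM at the intermediate dose and 3.91, 6.65 and 5.92 CPM with MYC off. MYC on exceeded MYC intermediate without overlap, by 0.90 ± 0.19 (edgeR, adjusted p = 0.00114), while MYC on and MYC off overlapped. That difference of 0.57 ± 0.19 missed the threshold (adjusted p = 0.0141). It passed with the replicate number as a block (0.57, adjusted p = 0.00866). The call also appeared without MYC on replicate 3 (0.70) or MYC off replicate 2 (0.71). Without MYC off replicate 1 the value was 0.37 (adjusted p = 0.0707), and without MYC on replicate 2 it was 0.40 (adjusted p = 0.0909). The lower step was −0.34 ± 0.19, with an interval of −0.71 to 0.04 (adjusted p = 0.184).

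Snhg8, the host of Snora24, gave no call in any comparison. It had 25, 26 and 29 counts with MYC on, 34, 13 and 18 at the intermediate dose and 40, 30 and 20 in MYC off, or 0.481 to 1.39 CPM over all libraries, with overlap between every pair of groups. MYC on against MYC off was 0.40 ± 0.32, with a 95% interval of −0.23 to 1.03 (edgeR, adjusted p = 0.293), an interval that includes both 0 and the 0.66 of Snhg5. Gas5, the other member shown above with a pyrimidine run at a start, was at 2.42, and the difference between the 2 genes was not tested.

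**Figure D2:**
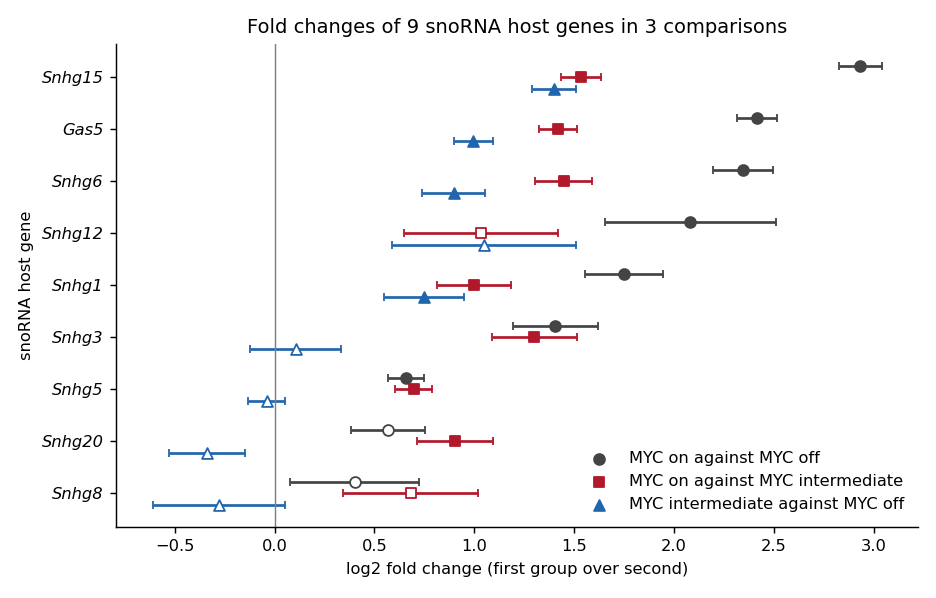
Log2 fold changes of the 9 snoRNA host genes in the 3 pairwise comparisons, with SE as horizontal bars; filled symbols passed an adjusted p under 0.01 and open symbols did not. All MYC on against MYC off values lie right of 0, from 0.40 for Snhg8 to 2.93 for Snhg15, and those of MYC intermediate against MYC off run from −0.34 to 1.40.

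The steps between neighbouring MYC levels are given side by side. Between MYC intermediate and MYC on, 7 of 9 were called higher, beside 17.2% of all genes, with a median log2 fold change of 1.03. For 8 of 9 the groups did not overlap, against 27.6% of all genes. Between MYC off and MYC intermediate, 4 of 9 were called higher (Gas5, Snhg1, Snhg6 and Snhg15), beside 14.7% of all genes, with a median of 0.75 and 5 of 9 not overlapping against 21.0% of all genes. The median was 0.42 over the 8 members left with a filter of 1 CPM in 3 libraries or with thinned counts, where Snhg12 was not tested. Both steps share the MYC intermediate libraries. None was called lower in either step (0 of 9 also at an unadjusted p under 0.05 in edgeR, and 0 of 9 by DESeq2), where 17.4% and 9.95% of all genes were.

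The difference between the steps was tested by placing MYC intermediate against the log2 midpoint of the other groups. For a gene higher in MYC on than in MYC off, as all members were by their means, a negative value is nearer to MYC off. Below that midpoint were 8 of 9 members and 41.4% of all genes. That share pools genes higher and genes lower in MYC on, for which the sign reads the opposite way, and is not a like background. No member was called in either direction by edgeR (background 0.184% lower and 1.7% higher, pooled in the same way). At an unadjusted p under 0.05 there were 4 members below it. The share of all genes at that cut was not computed, so the count is a description only. DESeq2 called 1 member, Snhg5, and 484 genes in all over both directions. The values were −0.62 ± 0.17 for Snhg20 (adjusted p = 0.0462), −0.60 ± 0.19 for Snhg3 (adjusted p = 0.091), −0.37 ± 0.08 for Snhg5 (adjusted p = 0.0153) and −0.21 ± 0.08 for Gas5 (adjusted p = 0.171). Snhg15 was at −0.07 ± 0.09 and Snhg12 at 0.01 (edgeR, adjusted p = 0.99). No SE is given for Snhg12, since its derivation from the F test is unreliable for a value this small. The transgene lay on the other side, at 2.59 ± 0.07, since it had fallen by 1.61 from MYC on to MYC intermediate and by a further 6.79 to MYC off.

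For the 6 members with a called change above 1 between MYC on and MYC off, the upper step held a share of the whole log2 change of 0.496 in Snhg12, 0.523 in Snhg15, 0.571 in Snhg1, 0.588 in Gas5, 0.617 in Snhg6 and 0.924 in Snhg3. Over the 1517 genes called higher in MYC on by as much, the median share was 0.474 and the quartiles 0.402 and 0.574.

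Levels between genes were compared in TPM, which take exon length into account. That length was 3760 of the 4118 bases spanned by Gas5, 2969 of 2969 for Snhg1 and 853 of 853 for Snhg8. For Snhg15 it was 1359 of 3170 bases. Where transcripts that retain introns add to the length, the TPM is lower, so the order of genes depends on the annotation. In MYC on, Gas5 (118.5 ± 13.7 TPM) and Snhg15 (111.5 ± 11.4 TPM) led and overlapped. Snhg6 (34.0 ± 3.02 TPM) and Snhg5 (32.9 ± 1.08 TPM) followed and overlapped too, then Snhg20 (12.3 ± 2.82 TPM) and Snhg3 (10.9 ± 1.64 TPM), again overlapping, then Snhg1, Snhg8 and Snhg12 at 7.87, 4.75 and 1.55 TPM, each apart from the next. In MYC off, Gas5 (22.6 ± 1.52 TPM) overlapped with Snhg5 (21.2 ± 0.586 TPM), and Snhg15 had moved to the third place at 14.9 ± 1.89 TPM.

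The summed host RNA of the 9 genes was 309.1 to 373.1 TPM with MYC on, 124.4 to 133.8 TPM at the intermediate dose and 77.3 to 91.8 TPM with MYC off, with no overlap. Its make-up shifted with it. Gas5 and Snhg15 together held 68.8% ± 0.902 of it with MYC on, 61.8% ± 0.652 at the intermediate dose and 44.4% ± 0.223 with MYC off (SD, n = 3 each). Snhg5 and Snhg20 together went from 13.5% ± 0.603 through 20.1% ± 1.39 to 35.2% ± 1.54. Both pairs were chosen after their values were seen, and the shares are a description. Their size depends on the annotated exon lengths, as above.

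**Figure D3:**
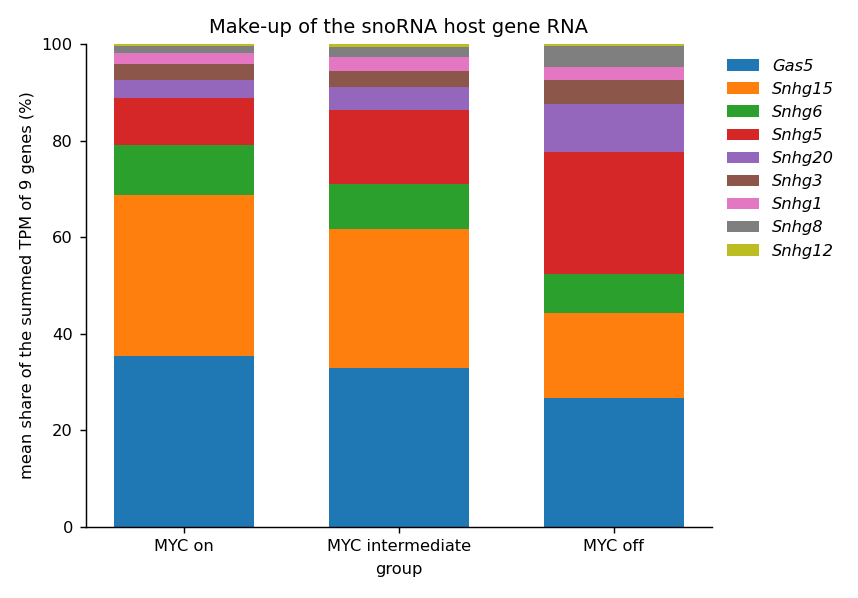
Mean share (%) of each of the 9 snoRNA host genes in their summed TPM, for the 3 groups of 3 libraries each. The share of Gas5 and Snhg15 falls from 68.8% in MYC on to 44.4% in MYC off, while that of Snhg5 grows from 9.89% to 25.2%.

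The library in which a member was highest was often a common one within a group. In MYC on, replicate 2 was the highest of the 3 libraries for 7 of 9 members (36.5% of all genes tested), and in MYC off replicate 2 was the highest for 8 of 9 (34.7% of all genes). In MYC intermediate, replicate 1 was the highest for 5 of 9 (32.1% of all genes) and replicate 2 for 4 of 9 (31.2%). Replicate 2 had the fewest counts of its group each time (18705516, 27010791 and 26933496), and MYC intermediate replicate 1 the most of its group, 32222479. The part of depth in this pattern was not tested. With counts thinned to a common depth, 6, 7 and 3 members were called higher in the 3 comparisons, with Snhg12 no longer past the filter and Snhg1 no longer called in the lower step.

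Genes next to the members changed to other extents. Zbtb37, a zinc finger gene that starts 427 bases from Gas5 on the opposite strand, went the other way, at 3.49 CPM with MYC on and 7.06 CPM with MYC off (log2 −0.98 ± 0.16, edgeR, adjusted p = 7.74e-05). Slc3a2, which encodes the CD98 heavy chain and starts 106 bases from Snhg1, rose by 1.02 ± 0.06 (adjusted p = 3.82e-10) where Snhg1 rose by 1.75. Rcc1, the exchange factor for Ran, rose by 0.73 ± 0.06 (adjusted p = 1.23e-08) and Gm17300 by 1.85 ± 0.21 (adjusted p = 1.29e-06), beside 1.41 for Snhg3.

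Other noncoding hosts outside the list were looked up as well. Of 12 listed, 11 had a row and 6 were tested. Of the 6, 4 were called higher in MYC on than in MYC off, beside 27.4% of all genes. These were Snhg17 (1.95 ± 0.14, adjusted p = 8.49e-09), Epb41l4aos (1.43 ± 0.30, adjusted p = 0.000567), Zfas1 (1.39 ± 0.14, adjusted p = 3.52e-07) and Snhg16 (1.27 ± 0.15, adjusted p = 2.89e-06). Snhg14 was at 0.63 ± 0.23 (adjusted p = 0.0249) and Snhg10 at −0.18 ± 0.40 (adjusted p = 0.721). Zfas1 had the shape of Snhg3 and Snhg5, with 11.7 CPM with MYC on, 4.74 CPM at the intermediate dose and 4.59 CPM with MYC off.

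Hosts were also collected from the annotation, as genes with a gene named Snord, Snora or Scarna in an intron on the same strand. Hosts of snoRNAs without such a name were left out. Snhg17 and Epb41l4aos are thus not in these classes, and by this rule Snhg20 would hold 0 snoRNAs. All 24 ribosomal protein hosts were called higher in MYC on than in MYC off, with a median log2 fold change of 1.57 and Rpl12 at the top with 2.77 ± 0.13 (edgeR, adjusted p = 3.62e-11). Of 42 other protein-coding hosts tested, 24 were called higher and 5 lower, with a median of 0.43. Gnl3, which encodes nucleostemin, led them at 3.83 ± 0.07 (adjusted p = 4.77e-15). Nop56, Nop58, Rack1, Eef2, Eef1b2, Eif3a and Tpt1 of this class also stand in lists given below. Of 9 noncoding hosts outside the list, 6 were called higher, with a median of 1.09. Snhg10, Snhg14, Snhg16 and Zfas1 among them were already counted in the paragraph above, so the sets are not separate. That class includes Cct6a, a chaperonin gene that the annotation does not count as protein-coding. The ribosomal protein hosts had medians of 0.65 in the upper step and 0.89 in the lower one, where the members had 1.03 and 0.75 (0.42 for the latter without Snhg12, as above), a difference between lists that was not tested.

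**Figure D4:**
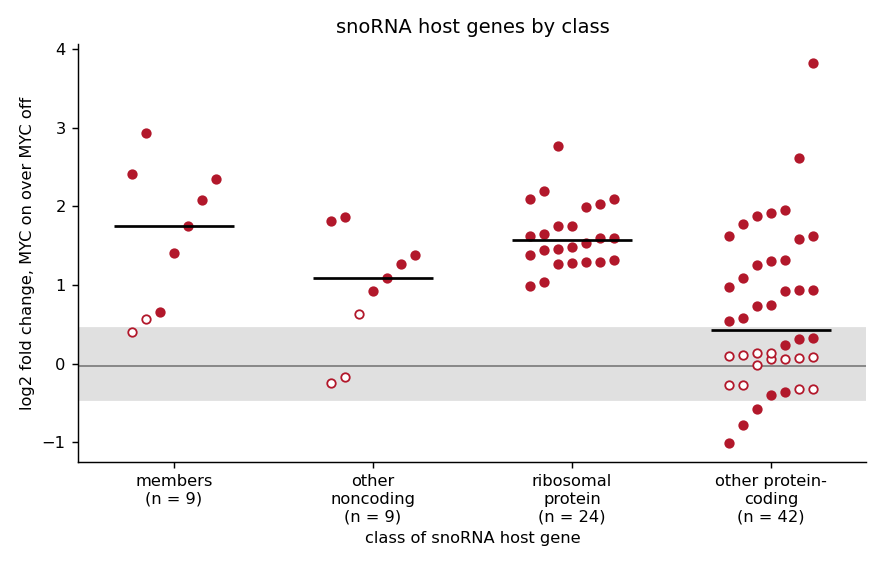
Log2 fold change of MYC on over MYC off for each tested snoRNA host gene in 4 classes (points; filled where the adjusted p was under 0.01), with the class median as a black bar and the quartiles of all 14098 genes tested as a grey band. The classes other than the members hold only hosts of snoRNAs with a Snord, Snora or Scarna name. The medians are 1.75 for the listed members, 1.09 for other noncoding hosts, 1.57 for ribosomal protein hosts and 0.43 for other protein-coding hosts.

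Genes of the proteins that turn an intron into a snoRNP are given as the other side of the pathway. Beside them stand the shares of all genes called in MYC on against MYC off, 27.4% higher and 27.5% lower. All 9 core protein genes were called higher in MYC on than in MYC off, with a median of 2.37. They include dyskerin (Dkc1, 2.64 ± 0.06, adjusted p = 2.24e-14), Nhp2 (2.56 ± 0.10, adjusted p = 3.85e-12), the U3 protein gene Rrp9 (2.56 ± 0.07, adjusted p = 2.7e-13) and fibrillarin (Fbl, 2.54 ± 0.08, adjusted p = 4.51e-13). Their medians were 0.76 in the upper step and 1.67 in the lower one. Of 16 assembly factors, 11 were called higher, with Nolc1 at 2.38 ± 0.07 (adjusted p = 2.75e-13). Of 18 genes of debranching and end trimming, 13 were called higher and 1 lower, the exosome subunit Exosc7 leading with 1.52 ± 0.08 (adjusted p = 1.14e-10).

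Genes of the routes that act on the spliced host RNA were counted too. Of 17 nonsense-mediated decay genes, 4 (23.5%) were called higher and 3 (17.6%) lower in MYC on, with a median of 0.15. The shares of all genes were 27.4% and 27.5%, and a difference from them was not tested. Smg6, the endonuclease of that pathway, was at −0.61 ± 0.06 on the log2 scale, lower in MYC on (edgeR, adjusted p = 2.53e-07). Rbm8a, which encodes a protein of the exon junction complex, was at 0.56 ± 0.11 (adjusted p = 0.000466), higher in MYC on. A list of 18 genes taken as having a terminal oligopyrimidine start, chiefly genes of translation, was counted as well. Their starts were not looked up here. All 18 were called higher, with a median of 1.15, among them Npm1 (3.10 ± 0.08, adjusted p = 5.8e-14) and Eef1g (2.10 ± 0.06, adjusted p = 3.55e-13).

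The genes with the pattern most like the leading members were sought among 8530 protein-coding genes, by the Euclidean distance of mean-centred log2 CPM over the 9 libraries. Nearest to Snhg15 were Mpp3 (0.384), Ak5 (0.465) and Ppan (0.494). Nearest to Gas5 were Cdc14b (0.428), Tspan15 (0.444) and Fam136a (0.465), and nearest to Snhg6 were B4galt2 (0.441), Tspan15 (0.502) and Fndc10 (0.522). These are descriptions of likeness over 9 libraries.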

How the data were processed

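RNA of 9 libraries of murine T-ALL cells was analysed, 3 each of MYC on, MYC intermediate and MYC off, grouped by their labels. Polyadenylated RNA was primed with oligo(dT) (SMART-Seq v4) and made into libraries with the non-stranded Nextera XT kit. Trimming, alignment and counting used cutadapt 1.16, STAR 2.5.4b and featureCounts on mm10, according to the submitters' processing notes. The annotation release and strand setting are not given in the sources used here. The authors deposited raw counts per gene, used for all tests, and TPM values, which the authors scaled for exon length and library total and which served to compare levels between genes. GENCODE M21 matched 53274 of 53380 identifiers without their version.

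Counts were tested in edgeR 4.0.16 (R 4.3.3) by its quasi-likelihood F test, two-sided (TMM scaling, default filter on low counts, all 9 libraries in 1 fit, group as the only term). Adjustment of p-values followed Benjamini-Hochberg over the 14098 genes, with an adjusted p under 0.01 as the threshold for a call. Values after ± beside log2 fold changes are SE, and beside levels SD. Each SE was derived as the absolute log2 fold change over the square root of its F statistic. It is an approximation, and a poor one for very small changes of genes with few counts. Intervals of log2 fold changes are normal 95% intervals from the SE. They take no account of the few degrees of freedom, so they are somewhat narrower than the F test implies. The edgeR fit was tested on simulated counts. DESeq2 1.42.0, other scalings, filters, thinned counts, a replicate block and leaving out each library were alternatives. An exact two-sided permutation test of 3 against 3 cannot go below 0.1 and gave 0.1 for every member without overlap between groups. Whether libraries came from separate cultures is not in the labels, so that the p-values reflect library-to-library spread alone, which may be technical. Changes are shares of each library's total, not amounts per cell.

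Libraries with the same number deviated together from their group means in MYC on and MYC off (r = 0.375, 0.253 and 0.219 over 9944 genes), and those of MYC intermediate did so only in part (0.132, −0.18 and −0.165 with MYC on, and 0.371, 0.0343 and 0.0841 with MYC off). The pairing comes from the data alone. The members and gene lists were chosen with earlier results of these data known. Genes named are all members, their neighbours, the other noncoding hosts tested, up to 4 called genes per list and host class with the largest change and at least 5 or 10 CPM in 1 group, and the 3 genes nearest in pattern to each of the 3 leading members.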

Additional observations from a re-analysis of the deposited data

How the results depend on the processing

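The number of members called higher ran from 6 to 8 in MYC on against MYC off, stayed at 7 against MYC intermediate and ran from 3 to 4 in MYC intermediate against MYC off over 17 alternatives, and 0 were called lower in each. With a filter of 1 CPM in 3 libraries or with thinned counts, Snhg12 was not tested. Leaving out 1 library at a time gave 7 to 8, 7 to 7 and 3 to 4. Against the midpoint of the other groups, 1 member in place of 0 was called lower by DESeq2 (Snhg5, −0.38), 1 with no filter on low counts (Snhg20, −0.60) and 0 to 1 when a library was left out (Snhg20 without MYC off replicate 1, −0.70). The cause was not tested. Of 592 values of single members under alternatives, 575 kept their direction and side of the threshold, 9 lost the call (all Snhg1 in the lower step), 8 gained one and 0 reversed. With the replicate number as a block, the counts of members called higher were 8, 7 and 4, since Snhg20 passed between MYC on and MYC off, and no other call of a member changed. The lower-step median of the members was 0.42 with the filter of 1 CPM in 3 libraries and with thinned counts, both over the members without Snhg12. Snhg8 and Snhg12 rest on at most 40 and 23 counts per library.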
